A study of Mus musculus with 160 samples.

Results

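Scl (Tal1), Lyl1, Lmo2 and Hhex, the E protein genes Tcf3, Tcf4 and Tcf12, and the inhibitor genes Id1, Id2 and Id3 were followed through single mouse cells passing from induced endothelium to blood progenitors. These 10 genes were chosen by name, out of 23420 rows of the expression table, and each was found on a single row. They were measured in 160 single cells by RNA sequencing, as TPM, a level per transcript length with cells brought to a common total. The cells were 65 induced hemogenic endothelial cells (iHECs), 21 day-14, 18 day-17 and 56 day-21 induced hematopoietic progenitor cells (iHPCs), the days 14, 17 and 21 being days 3, 6 and 10 of maturation.

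All cells were of the C57BL/6 strain, and the labels name ESC/iPSC (embryonic or reprogrammed stem cells) as their source without saying which cell came from which. All groups shared a doxycycline-inducible Runx1-p2a-Hoxa9 cassette at Rosa26 and doxycycline, so there was no group without the transgenes. Per the methods, conditioned medium with mIL3, hFlt3L and mSCF was used throughout, and mIL6 only up to the iHEC stage. The base medium also changed from the iHEC stage to maturation. BMP4 and VEGF belonged to the earlier culture, before doxycycline was added. The edited lines were drug-selected clones, and how many clones gave these cells is not given in the sources used here. The iHECs were sorted as CD31+CD41lowCD45-c-kit+CD201high cells. The iHPCs formed from iHECs on OP9-DL1 stroma, which presents the Notch ligand Dll1, and were sorted as CD45+Lin- cells at days 14 and 17 and as Ter119-CD45+c-kit+CD127+ cells at day 21. Day, gate, stroma and culture medium therefore cannot be told apart between iHECs and day 14. Day and gate cannot be told apart between day 17 and day 21. The labels name no culture or experiment for any cell. A group is therefore 1 sample, differences lack a replicate check, p-values are not given, and every SD is that of single cells within a group.

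E proteins are basic helix-loop-helix transcription factors that bind the E-box, written CANNTG, as pairs. Tcf3 codes for E2A, Tcf4 for E2-2 and Tcf12 for HEB, and in early lymphoid cells E2A and HEB turn on genes of T and B cell development. Id proteins have the helix-loop-helix without the DNA-binding part, so an E protein paired with an Id protein cannot bind DNA. Scl and Lyl1 are tissue-restricted partners of E proteins, which with the adaptor Lmo2, Ldb1 and a Gata factor form a complex needed for hemogenic endothelium and blood stem cells. Hhex is a homeobox factor of endothelial and blood progenitors, and Lmo2, Lyl1 and Hhex are genes of immature thymocytes that T cells normally shut off.

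The E-box letters are shown first, since E proteins and the Scl complex bind them, while Id proteins hold E proteins off them. Stretches before the RefSeq start sites (GRCm38.p6) of Tcf3, the main E protein gene of the iHPCs, and Id2, the main Id gene of day 21, are printed 5′ to 3′ with each match to CANNTG, which reads the same on both strands, in capitals.

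Tcf3, chr10:80433648-80433885, minus strand: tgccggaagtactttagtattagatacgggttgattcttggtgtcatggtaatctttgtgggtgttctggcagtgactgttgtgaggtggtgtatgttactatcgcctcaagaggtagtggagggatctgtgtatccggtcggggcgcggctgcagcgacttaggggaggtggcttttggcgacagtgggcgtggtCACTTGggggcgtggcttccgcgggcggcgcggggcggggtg
Id2, chr12:25096254-25096342, minus strand: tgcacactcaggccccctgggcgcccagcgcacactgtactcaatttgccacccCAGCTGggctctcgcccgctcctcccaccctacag

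The Tcf3 stretch of 238 bases ran from 250 to 13 bases before the start and held 1 match, and 64.7% of all 32851 promoters hold a match in a stretch of that length and place. The Id2 stretch of 89 bases ran from 250 to 162 bases before the start and held 1 match, against 33% of promoters. That start is the RefSeq one, and the stretch lies inside the longest Id2 transcript of GENCODE M21, in its first intron and downstream of that transcript's own start. A match describes the letters and does not show a bound site. Of the 9 genes looked up, Lmo2 and Id1 had no entry in the promoter table. In GENCODE M21 (GRCm38) the Lmo2 gene spans chr2:103957986-103981878 on the plus strand, Id1 chr2:152736251-152737410 (plus), Id3 chr4:136143497-136145755 (plus), Id2 chr12:25093799-25097140 (minus), Tcf3 chr10:80409514-80433647 (minus) and Tal1 chr4:115056426-115071755 (plus).

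Before the results, each cell was set against the markers of its own label, by a rule added after the data had been seen. The sum of the endothelial list of 8 genes in iHECs, or of the pan-leukocyte list of 6 genes in iHPCs, was called low under the group's median divided by 3. It was low in 7 iHECs (56.6 to 455 TPM against 552 to 4266 in the other 58), in 2 day-14 iHPCs (35.7 and 62 against 1662 to 5437 TPM in the other 19) and in 2 day-17 iHPCs (15.8 and 1088 against 3789 to 7258 TPM in the other 16). No day-21 iHPC was low (1255 to 5676 TPM). Pou5f1 and Dppa5a, genes of pluripotent cells that were looked up after these cells had been seen, were at 698 and 972 TPM and at 2716 and 5070 TPM in the 2 low day-14 cells. In the other 19, Pou5f1 did not exceed 4.58 TPM, and Dppa5a was above 1 TPM in 5 and reached 235 TPM. In the 2 low day-17 cells Krt8, a keratin gene of simple epithelia looked up in the same way, was at 2306 and 1447 TPM. It was at most 226 TPM in the other 16 (and up to 621 TPM in the other day-14 cells). Ptprc, which codes for CD45, was at 0.275 and 50.6 TPM in these 2 cells, the second value lying within the 46.1 to 284 TPM of the other 16. These 11 cells are low in the summed markers of their labels, which does not settle what they are, and the results that rest on them are also given without them. Of the 8 endothelial markers, Cdh5 was at 0 in every iHPC. Pecam1 was above 1 TPM in 64 of 65, 17 of 21, 16 of 18 and 46 of 56 cells in the order of groups. Esam was so in 63 of 65, 15 of 21, 15 of 18 and 9 of 56 cells. The others, Kdr, Tek, Emcn, Sox18 and Sox7, were above 1 TPM in at most 2 iHPCs of any day. The list's summed medians were 1586, 48.9, 178 and 26.1 TPM in the order of groups. Of the 7 stromal feeder markers, Col3a1 and Lum were at 0 in all cells, Pdgfrb was above 1 TPM in 0 of 65, 10 of 21, 16 of 18 and 44 of 56 cells in the order of groups, and the list's summed medians were 0 TPM in iHECs and 3.35, 55.7 and 9.61 TPM at days 14, 17 and 21, with a highest value of 116 TPM at day 17.

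Library complexity differed between groups, and this touches every share below. The number of genes above 1 TPM had a median of 4926 in iHECs (3309 to 7533), 8200 at day 14 (3103 to 9333), 8101 at day 17 (6536 to 9658) and 6695.5 at day 21 (3188 to 7950). TPM keeps no depth, so the depth of a cell is unknown, and a gene listed at 0 is not shown to be absent. Fewer transcripts of a gene and a less complete library cannot be told apart in a single cell.

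The leading E protein gene was Tcf4 in iHECs and Tcf3 in iHPCs. Tcf4, the E protein of plasmacytoid dendritic cells that endothelium also uses, ran from 0 through a median of 39 to 272 TPM in iHECs. It ran from 0 through 7.89 to 32.8 TPM at day 14 and from 0 through 12.8 to 24.5 TPM at day 17. At day 21 it ran from 0 through 1.67 to 24.8 TPM. All 3 iHPC groups thus stayed under the highest iHECs, with ranges that overlap from 0 upward. Cells with Tcf4 above 1 TPM made up 93.8% of iHECs (61 of 65, 95% interval 85 to 98.3 by the exact Clopper-Pearson method) and 51.8% of the cells of day 21 (29 of 56, interval 38 to 65.3), with 19 of 21 and 17 of 18 on the days between. Such intervals cover counting error only.

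Tcf3, whose protein E2A is the E protein most needed for lymphoid commitment, went the other way. In iHECs it ran from 0 through a median of 2.66 to 223 TPM, with 25 of 65 cells at 0. It ran from 4.86 through 127 to 221 TPM at day 14 and from 48.2 through 191 to 410 TPM at day 17, so that the lowest day-17 cell stood above the iHEC median. At day 21 it ran from 0 through 64.9 to 287 TPM. Tcf3 above 1 TPM was found in 53.8% of iHECs (35 of 65, interval 41 to 66.3), in every cell of days 14 and 17 and in 87.5% at day 21 (49 of 56, interval 75.9 to 94.8). TPM was given per gene, so the E12 and E47 forms of E2A were not separated.

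Tcf12, the gene of HEB, had the lowest median of the E protein genes at day 14 and a higher one at day 17. Its range was 0 to 197 TPM in iHECs (median 8.34), 0 to 22.3 TPM at day 14 (median 6.28), 6.52 to 77.3 TPM at day 17 (median 25.7) and 0 to 82.1 TPM at day 21 (median 14.5). Day 17 was the group in which every cell had it above 1 TPM, 18 of 18, against 40 of 65, 18 of 21 and 44 of 56 in iHECs and at days 14 and 21.

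The leading Id gene differed between groups. Id3, a target of BMP signaling and of the pre-T cell receptor, was the highest Id gene in 30 of the 64 iHECs with an Id sum above 1 TPM, and Id1 and Id2 were each the highest in 17. At day 14 Id1, a classic endothelial and BMP target, was the highest in 17 of 21 cells. At day 17 Id2 and Id3 were each the highest in 8 of 18 cells and Id1 in 2. At day 21 Id2, which innate lymphoid cells, NK cells and several myeloid cells require, was the highest in 54 of 56 cells (96.4%, interval 87.7 to 99.6).

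The levels show the same order. Id1 ran from 0 through a median of 104 to 1666 TPM in iHECs and from 0 through 115 to 255 TPM at day 14. By day 17 it ran from 0 through 1.16 to 244 TPM and at day 21 from 0 through 0 to 251 TPM. In the order of groups, 52 of 65, 17 of 21, 10 of 18 and 18 of 56 cells exceeded 1 TPM (80, 81, 55.6 and 32.1%). Its medians were alike in iHECs and at day 14, and those of days 17 and 21 lay far below them although single cells still reached 244 TPM and more.

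Id2 ran from 0 through a median of 54.9 to 2189 TPM in iHECs, from 0 through 18.6 to 207 TPM at day 14 and from 0 through 23.3 to 153 TPM at day 17. At day 21 it ran from 1.40 through 245 to 4721 TPM. Cells above 1 TPM numbered 43 of 65, 16 of 21 and 13 of 18 in the earlier groups and 56 of 56 day-21 cells (100%, interval 93.6 to 100). The median of day 21 lay above the highest cell of either day 14 or day 17.

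Id3 ran from 0 through a median of 155 to 2120 TPM in iHECs, from 0 through 1.52 to 158 TPM at day 14 and from 1.01 through 5.85 to 1298 TPM at day 17. Cells with Id3 above 1 TPM numbered 51 of 65, 13 of 21 and 18 of 18 there. At day 21 there were 4 such cells of 56 (7.14%, interval 1.98 to 17.3), the highest at 266 TPM, and Id3 was at 0 in the other 52. The highest day-17 cells, at 1262 and 1298 TPM, were the cells low in pan-leukocyte markers, and they also held the highest Id1 of their group, 244 and 126 TPM. Without them Id3 ran from 1.01 through 5.72 to 194 TPM over 16 cells, all above 1 TPM. The fourth Id gene, Id4, exceeded 1 TPM in 1 iHEC and 1 day-17 cell and in no cell of days 14 and 21.

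**Figure D1:**
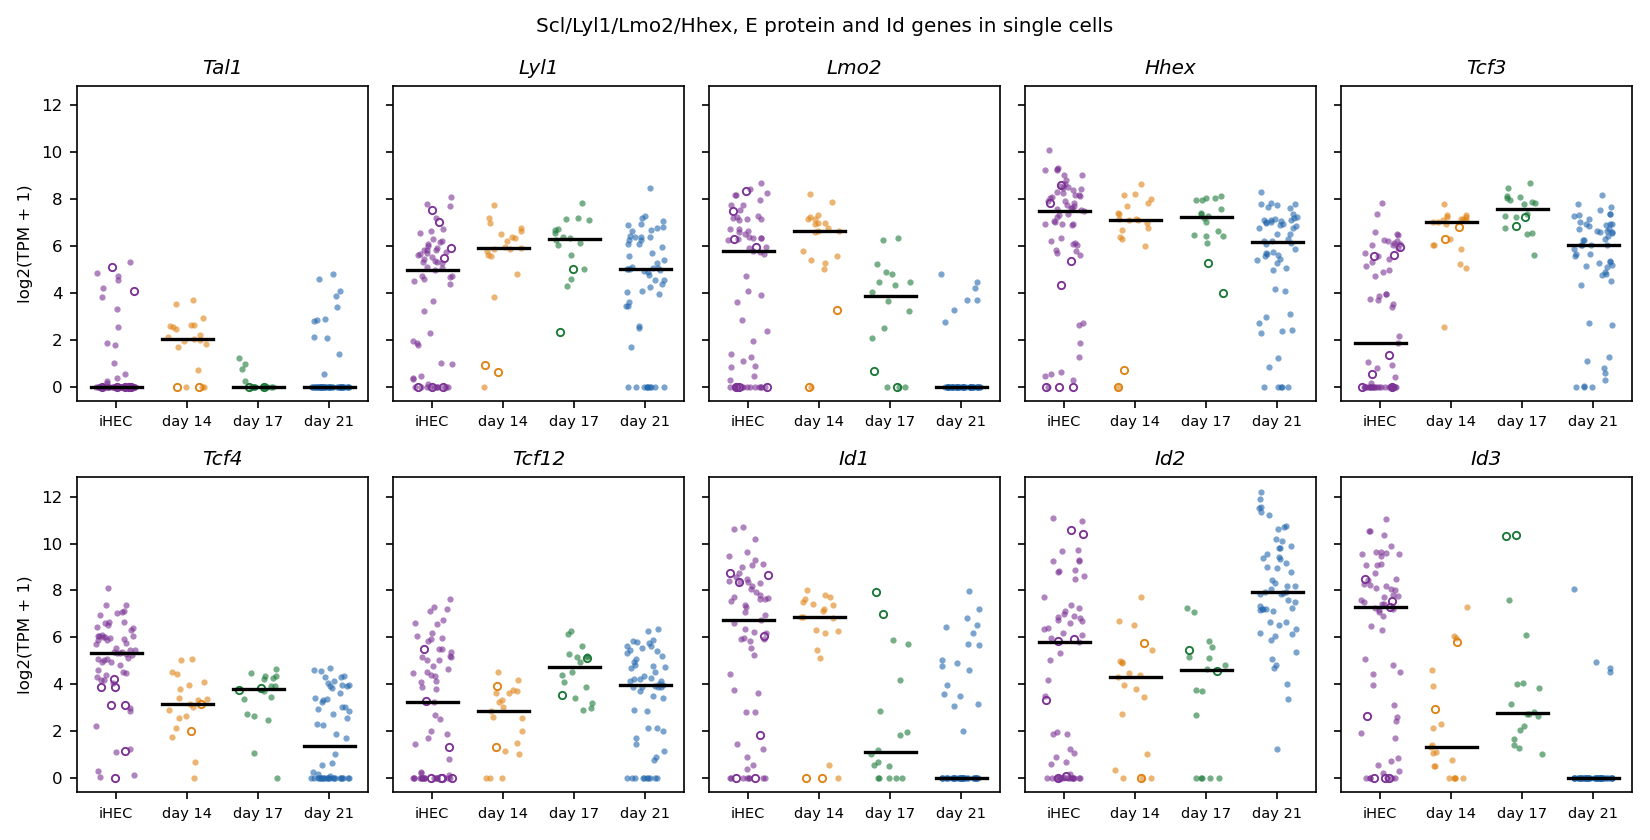
Level of each of the 10 genes, as log2(TPM + 1), in every cell by group (iHEC, days 14, 17 and 21 of iHPCs). Each point is 1 cell, open points are the 11 cells low in the markers of their label, and bars are medians, with Tcf3 and Id2 the genes whose medians stand highest within their families at days 17 and 21 and Lmo2 at a median of 0 at day 21.

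Within a cell, the makeup of each family was taken as percent of the family's summed TPM, in cells where that sum was above 1 TPM. Id3 made up 43 ± 34.8% of the Id sum in iHECs (mean ± SD over 64 cells), Id1 65.7 ± 35.3% at day 14 (21 cells) and Id2 93.3 ± 17.1% at day 21 (56 cells). At day 17 Id2 and Id3 held 42 ± 41.5% and 44.3 ± 39.7% (18 cells), with SDs nearly as large as the means. Tcf4 made up 52.5 ± 30.5% of the E protein sum in iHECs (62 cells), and Tcf3 81.8 ± 17%, 81.2 ± 11.2% and 63.9 ± 32.1% at days 14, 17 and 21 (21, 18 and 55 cells). Tcf3 was the highest E protein gene in 20 of 21, 18 of 18 and 44 of 55 iHPCs of those days, and Tcf4 in 32 of 62 iHECs. Tcf12 led in 9 of the 55 day-21 cells.

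**Figure D2:**
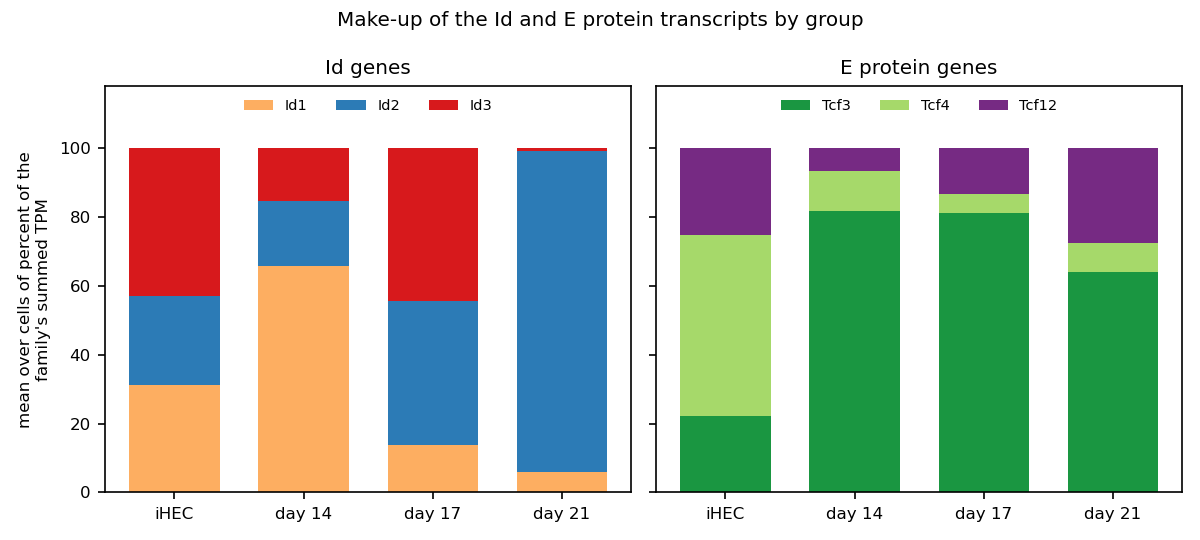
Mean over cells of the percent that each gene held of its family's summed TPM, for the Id genes and for the E protein genes, in the 4 groups. Each bar starts at 0 and adds up to 100%, with Id3 and Tcf4 the largest parts in iHECs, Id1 and Tcf3 at day 14, and Id2 and Tcf3 at day 21.

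Cells with several Id genes were fewest at day 21. Among iHECs 32 of 65 cells had all of Id1, Id2 and Id3 above 1 TPM, and the counts at days 14, 17 and 21 were 9 of 21, 8 of 18 and 2 of 56. At day 21, 36 of 56 cells had Id2 alone above 1 TPM and 16 had Id1 and Id2. Id3 alone was the pattern of 3 day-17 cells, and no Id gene was above 1 TPM in 2 iHECs.

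The balance of Id genes to E proteins was computed per cell as log2(Id1 + Id2 + Id3 + 1) minus log2(Tcf3 + Tcf4 + Tcf12 + 1), with TPM summed before the log. A value above 0 means more Id than E protein transcript in that cell and says nothing on protein. The Id sum had medians of 430, 145, 46.3 and 271 TPM in iHECs and at days 14, 17 and 21, and the E protein sum had medians of 85.7, 136, 229 and 93 TPM. Day 17 was the group with the lowest Id median and the highest E protein median.

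The balance was 2.01 ± 2.77 in iHECs (mean ± SD between cells, 65 cells), with a lowest value of -5.68, a median of 2.14 and a highest value of 8.13. At day 14 it was 0.22 ± 1.49 (21 cells, lowest -3.74, median 0.18, highest 3.8). The day-17 value was -1.95 ± 2.46 (18 cells, lowest -6.37, median -1.98, highest 3.24), and at day 21 it was 1.98 ± 2.71 (56 cells, lowest -3.30, median 1.74, highest 9.09). The means of consecutive groups thus differed by -1.79, -2.17 and 3.92. The ranges of all 4 groups overlap, and the last of these differences was larger than the SD of either group while the first was smaller than that of iHECs.

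Cells with a larger Id sum than E protein sum numbered 54 of 65 among iHECs (83.1%, interval 71.7 to 91.2) and 14 of 21 at day 14 (66.7%, interval 43 to 85.4). Their number was 2 of 18 at day 17 (11.1%, interval 1.38 to 34.7) and 42 of 56 at day 21 (75%, interval 61.6 to 85.6). The 2 day-17 cells were those low in pan-leukocyte markers, with Id sums of 1529 and 1467 TPM against E protein sums of 161 and 174 TPM. Without them the count was 0 of 16, which allows a share of up to 18.8%, and the balance was -2.58 ± 1.73 with a highest value of -0.27. Leaving out the low cells gave 14 of 19 at day 14, with a balance of 0.45 ± 1.24, and 48 of 58 in iHECs, with a balance of 1.81 ± 2.74.

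**Figure D3:**
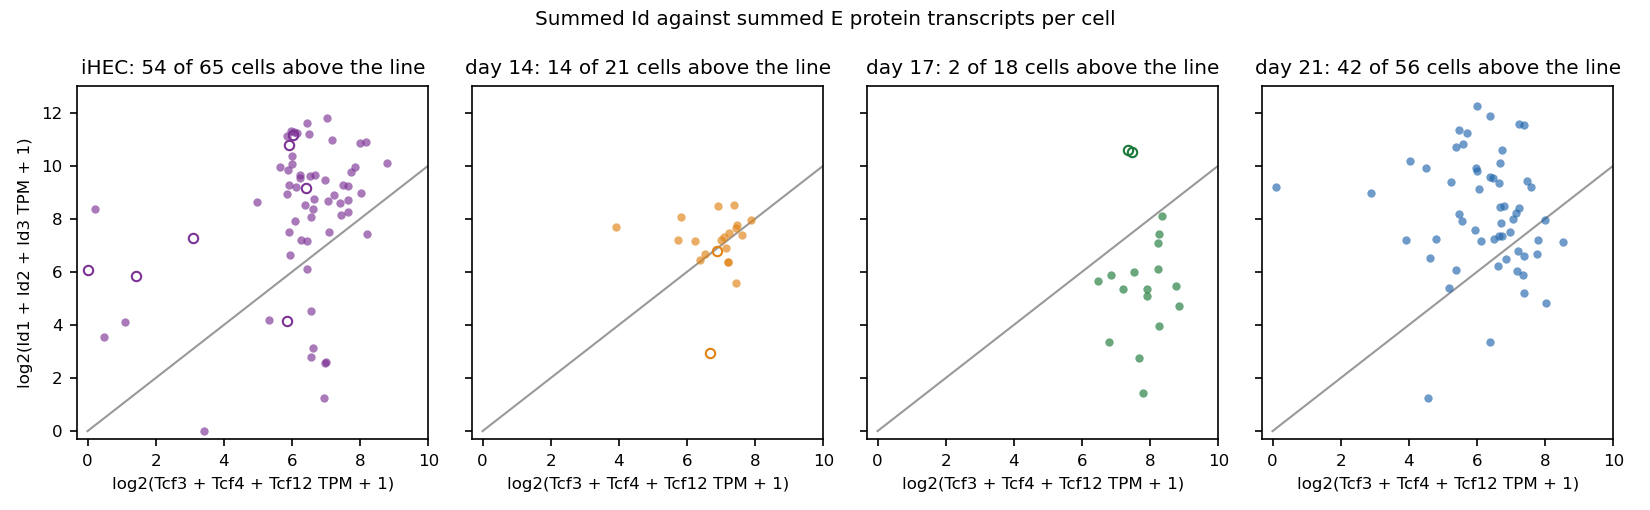
Summed Id transcripts (vertical axis, log2 of TPM + 1) against summed E protein transcripts (horizontal axis, log2 of TPM + 1) in each cell, by group. Each point is 1 cell, open points are cells low in the markers of their label, and the line marks equal sums, with 54 of 65, 14 of 21, 2 of 18 and 42 of 56 cells above it from iHECs to day 21.

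Both sides of the balance differed between consecutive groups. On the log2 scale the mean Id sum differed by -1.07, -1.22 and 2.37 and the mean E protein sum by 0.71, 0.95 and -1.55. Among day-21 cells the E protein sum moved with the number of genes above 1 TPM (r = 0.71 over 56 cells, log2 sum) and the balance against it (r = -0.32), and the part of complexity in the day-21 values was not tested. The values turned on single genes within families. With Id2 left out, the day-21 balance was -4.39 and the share of cells with more Id than E transcript was 8.93%. With Id1 left out, that share at day 14 was 14.3%, and with Tcf3 left out it was 95.2% at day 14 and 61.1% at day 17. Across cells of a group the Id and E sums were weakly related (Pearson r over cells of 0.33, -0.02, -0.01 and -0.11 in the order of groups, cells of 1 sample sharing their preparation).

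Lmo2, the adaptor that joins the Scl complex to its partners, ran from 0 through a median of 53.8 to 414 TPM in iHECs, from 0 through 99.4 to 293 TPM at day 14, from 0 through 13.5 to 80.9 TPM at day 17 and from 0 through 0 to 26.6 TPM at day 21. The share of cells above 1 TPM was 69.2% (45 of 65, interval 56.6 to 80.1), 90.5%, 72.2% and 12.5% in this order. Both the level and the share of cells were lower at day 17 than at day 14 and lower again at day 21, the median of the cells above 1 TPM being 107 TPM at day 14, 20.8 TPM at day 17 and 12 TPM at day 21. The highest day-21 cell was below the iHEC and day-14 medians.

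The 7 day-21 cells with Lmo2 above 1 TPM held 5.72, 8.76, 11.8, 12, 17.7, 21 and 26.6 TPM. All 7 also had Lyl1 and Hhex above 1 TPM, and Lyl1 lay between 16 and 122 TPM in them. Gata2 was at 0 in 3 of them and between 165 and 945 TPM in 4. They had 5769 to 7950 genes above 1 TPM, within the range of their group. With the low cells left out, the counts with Lmo2 were 41 of 58 among iHECs, then 18 of 19 (day 14) and 13 of 16 (day 17).

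Tal1, the founding member of the complex, was low in all groups. It ran from 0 to 39.3 TPM in iHECs and from 0 to 11.8 TPM at day 14, where its median of 3.12 TPM was the only one above 0. Its highest value was 1.36 TPM at day 17 and 26.6 TPM at day 21. The counts above 1 TPM were 13 of 65, 15 of 21, 1 of 18 and 11 of 56 (20, 71.4, 5.56 and 19.6%). Lyl1, its close relative, was the more abundant of the pair throughout, with medians of 30.6, 59.5, 77.6 and 31 TPM. Lyl1 was found in 45 of 65, 18 of 21, 18 of 18 and 46 of 56 cells, and its range reached 348 TPM at day 21. An exon of Lyl1 overlaps one of Nfix on the opposite strand, and reads of the genes cannot be told apart where strand was not used, which the sources used here do not give.

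Hhex was found in most cells of every group. Its medians were 177, 138, 149 and 70.9 TPM, with 57 of 65, 18 of 21, 18 of 18 and 50 of 56 cells above 1 TPM. The 3 day-14 cells without Lyl1 above 1 TPM were the same 3 without Hhex, and 2 of them were the cells with Pou5f1. At day 21, 35 of 56 cells had Tal1 or Lyl1, an E protein gene and Ldb1 above 1 TPM but not Lmo2.

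Transcripts of 4 parts of the complex were counted together, namely Tal1 or Lyl1, Lmo2, any E protein gene and the bridging factor Ldb1. Its Gata factor was not among them. Gata2 was above 1 TPM in 26 of 65, 6 of 21, 3 of 18 and 34 of 56 cells in the order of groups. Gata1 was so in 0, 0, 1 and 21 cells. The 4 parts stood together above 1 TPM in 40% of iHECs (26 of 65, interval 28 to 52.9). At day 14 they did so in 85.7% of cells (18 of 21, interval 63.7 to 97). The share was 72.2% at day 17 (13 of 18, interval 46.5 to 90.3) and 10.7% at day 21 (6 of 56, interval 4.03 to 21.9). At day 17 the 5 remaining cells lacked Lmo2 alone of the 4 parts. The share was higher among complex iHEC libraries, 83.3% in those with at least 6000 genes above 1 TPM (12 cells), a setting chosen after the data had been seen. In the 40 day-21 cells with at least 6000 genes it was 15%. Co-detection of transcripts does not show an assembled complex.

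Differences between consecutive groups were taken as later minus earlier means of log2(TPM + 1), a scale that understates the change of low genes. Over 9674 genes above 1 TPM in more than 30 cells, a filter that all 10 genes passed, the median of all genes moved by 0.93 in the first comparison (day 14 against iHECs), by 0.28 in the second (day 17 against day 14) and by -0.74 in the third (day 21 against day 17). Each value below is relative to that median, and a gene counted as past the fold at 1 log2 unit or more from it.

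From iHEC to day 14, 1 of the 10 genes was higher past the fold, where 27.3% of all genes were, and 5 were lower, where 24.4% were. The higher gene was Tcf3 (2.84, from a mean of 2.73 ± 2.74 to 6.50 ± 1.15). The lower genes were Id3 (-4.44), Tcf4 (-2.70), Id2 (-1.82), Tcf12 (-1.39) and Hhex (-1.01). Hhex stood at the edge of the fold, and its means as they stand differed by only -0.08. Relative to the median its difference was -0.68 without the low cells. Lmo2 and Lyl1 were higher by 0.71 and 0.59 and passed the fold, at 1.15 and 1.08, without those cells. Id1 stood at -0.95, just inside the fold. Among cells with at least 6000 genes, day 14 minus iHEC was -2.66 for Id1 and -3.37 for Id2, iHECs being the higher group in both, and Id1 was then past the fold. Neutrophil and monocyte markers moved with this comparison, from a median sum of 0 TPM in iHECs to 346 TPM at day 14, with highest sums of 3992 and 1450 TPM. The part of these markers was not tested.

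From day 14 to day 17, 2 genes were higher past the fold against a background of 9.03%, and 3 were lower against 7.09%. Tcf12 (1.79) and Id3 (1.34) were higher. Id1 (-3.61), Lmo2 (-2.96) and Tal1 (-1.88) were lower, and 0.145%, 0.258% and 1.20% of the 9674 genes had a lower difference. Tal1, in 13, 15, 1 and 11 cells in the order of groups, would miss the filter without the day-14 cells. Its rank is therefore no support for a direction. Without the low cells Id3 was at 0.79 and no longer past the fold, and Id1 was at -4.81. Neutrophil and monocyte markers moved with this comparison too, from a median sum of 346 TPM to 8.10 TPM. The highest sum was 1450 TPM at day 14 and 7435 TPM at day 17. Of 21 and then 18 cells, Csf1r was in 19 and 5, Mpo in 17 and 4, and Elane in 12 and 4. Csf3r was in 4 and 2 and Lyz2 in 8 and 8, with S100a8 and S100a9 at 0 on both days. The part of these markers was not tested. The 2 gates were the same here, so this is the comparison in which day varied without the gate.

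From day 17 to day 21, 2 genes were higher past the fold, against 10.3% of all genes, and 3 were lower, against 13.1%. Id2 was higher by 5.13 (from a mean of 3.65 ± 2.57 to 8.04 ± 2.26), and 99.9% of the genes had a lower difference. Tal1 was higher by 1.19, while its means as they stand differed by 0.46 and its median was 0 TPM on both days. It would miss the filter without the day-21 cells. Id3 (-2.76), Lmo2 (-1.95) and Tcf3 (-1.51) were lower. Tal1 and Tcf3 were at 0.98 and -0.65 in cells with at least 6000 genes and then not past the fold, whereas Id2 was at 4.96, Id3 at -2.89 and Lmo2 at -2.16. Among the cells of days 17 and 21 with 5000 to 7500 genes, which held 3 day-17 cells, Lmo2 was at -0.74.

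**Figure D4:**
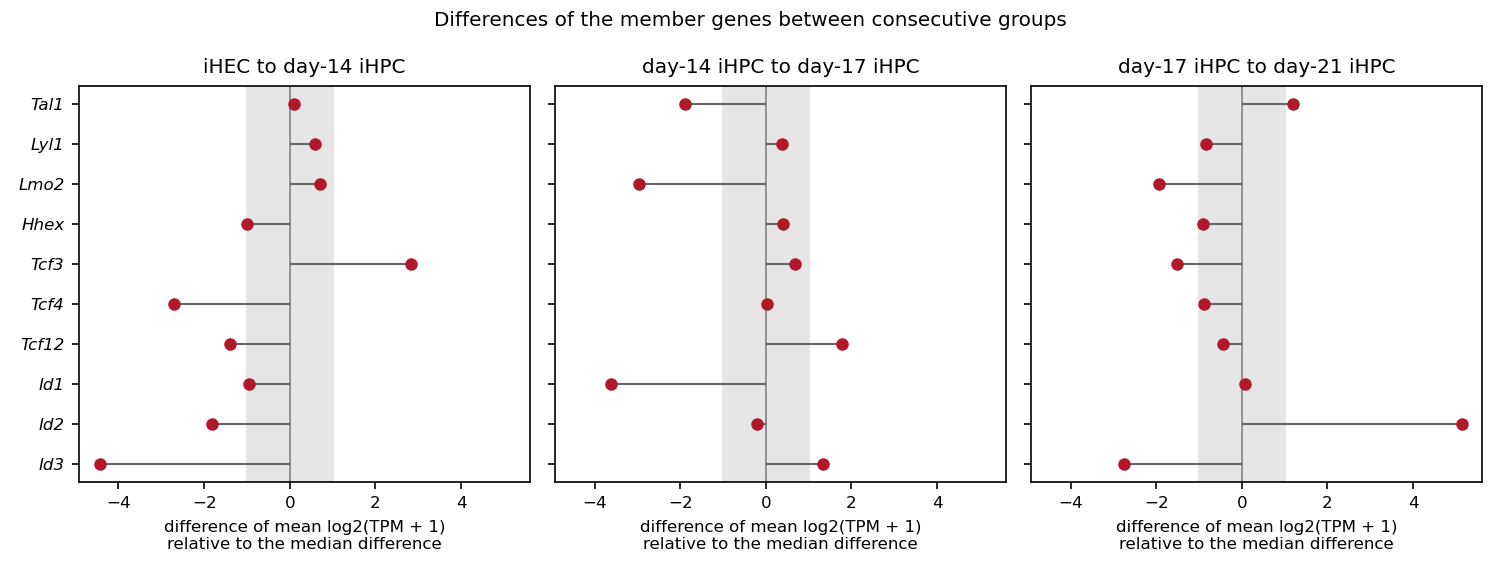
Difference of mean log2(TPM + 1) between consecutive groups, later minus earlier and relative to the median difference of 9674 genes (horizontal axis, log2 units), for the 10 genes. Points are the differences and the grey band spans 1 log2 unit to either side, outside which lie Tcf3, Id3, Tcf4, Id2, Tcf12 and Hhex in the first panel, Id1, Lmo2, Tal1, Tcf12 and Id3 in the second and Id2, Id3, Lmo2, Tcf3 and Tal1 in the third.

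The day-21 iHPCs were also read by Gata2, the Gata factor of stem, progenitor and mast cells, since a Gata factor belongs to the Scl complex. Of the 56 cells, 34 had Gata2 above 1 TPM and 22 did not. Tal1 was above 1 TPM in 11 of 34 cells and 0 of 22, which allows a share of up to 13.6% in the latter, and Gata1, the erythroid and mast cell Gata factor, in 21 of 34 and 0 of 22. Of the 11 cells with Tal1, 10 also had Gata1. Lyl1 was in 30 of 34 and 16 of 22, Lmo2 in 4 of 34 and 3 of 22, and Tcf3 in 31 of 34 and 18 of 22. Tcf4 was in 14 of 34 with a median of 0.062 TPM (41.2%) and in 15 of 22 with a median of 8.79 TPM (68.2%). Id1 was in 9 of 34 (26.5%) and 9 of 22 (40.9%), and Id3 in 1 of 34 and 3 of 22.

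Id2 was above 1 TPM in every cell of both sets, from 15 through a median of 655 to 4721 TPM with Gata2 and from 1.40 through 210 to 582 TPM without. The means differed by 1.62 log2 units and the ranges overlap. The Id to E balance was 2.54 ± 2.69 with Gata2 and 1.11 ± 2.55 without, and Id sums were above E sums in 26 of 34 and 16 of 22 cells. Relative to day 17, in the cells without Gata2, Id2 was higher by 4.19, while Tal1 was at 0.61 and not past the fold. Tal1 was at 0 in all 22 of these cells, so 0.61 is positive only because the median of all genes, -0.79, was taken off.

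The cells with Gata2 above 1 TPM were themselves of 2 kinds, a split made after the data had been seen. In 22 of them Gata2 ran from 66 to 1739 TPM, and in the other 12 from 1.02 to 9.18 TPM. All 11 cells with Tal1, and the 4 with both Gata2 and Lmo2, were among the 22. The balance was 3.75 ± 2.27 in the 22 cells and 0.31 ± 1.87 in the 12, with Id sums above E sums in 20 of 22 (90.9%, interval 70.8 to 98.9) and 6 of 12 (50%, interval 21.1 to 78.9). Id2 had a median of 1026 TPM in the 22 cells (40.6 to 4721) and of 119 TPM in the 12 (15 to 743), the latter below the 210 TPM of cells without Gata2. The summed mast cell list had medians of 36947 and 960 TPM in these sets.

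Mast cell and basophil markers moved with Id2. Cpa3, a mast cell protease, was above 1 TPM in no iHEC or day-14 iHPC, in 11 of 18 day-17 and in all 56 day-21 iHPCs, where it ran from 19.4 to 15786 TPM, and Mcpt4 was in 53 of 56. Of the list of 8 genes, 7 were above 1 TPM in some day-21 cell and Tpsb2 was at 0 in all. Cma1 was in 53 of 56 and Hdc in 47, while Mcpt8 was in 32, Ms4a2 in 19 and Fcer1a in 2. The summed list ran from 412 through 24751 to 82600 TPM in cells with Gata2 and from 81.3 through 987 to 4647 TPM in those without. Over the 56 cells, log2 Id2 and the log2 summed list had r = 0.70, with 0.77 in the cells with Gata2 and 0.36 in those without. Innate lymphoid markers were at a median sum of 438 TPM at day 21 and 23.7 TPM at day 17. Most members of this list were in few day-21 cells. Nkg7 was in 48 of 56 and Gzma in 40, while Zbtb16 was in 9, Il18r1 in 3, and Il2rb and Rora in 1 each. Klrb1c and Tbx21 were at 0 in all of them. The part of these cell types in the Id2 level was not tested.

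The genes whose pattern was most like Lmo2, Id1 and Id2 were ranked by Pearson correlation of log2(TPM + 1) over the 160 cells, among 9673 genes each. The cells share groups, libraries and complexity, so these values describe the group pattern. Nearest to Lmo2 were Afap1l1 and Cebpd (r = 0.54 each), Rps4y2, Tmem176b and Ppic, and Afap1l1 was above 1 TPM in 59 of 65 iHECs and no day-21 cell. Nearest to Id1 were Tnfaip2 (0.59), Ppic, Snx9, Dlk1 and P4ha1. Nearest to Id2 were the mast cell or granule genes Mcpt4 (0.55), Cpa3 (0.55), Cma1 and Gzmb, and Slc45a3. When each gene was centered within its group, the 5 nearest genes included none of these for Lmo2 or Id2 and 2 of them, Tnfaip2 and P4ha1, for Id1.

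The partners of these factors were read from lists chosen with earlier results known. Of 18 partners of the Scl complex, 14 passed the filter, and from iHEC to day 14 there were 3 higher and 4 lower past the fold (median -0.46), shares close to the 27.3% and 24.4% of all genes. Ldb2, an endothelial relative of Ldb1, went from 62 of 65 iHECs to no iHPC of any day (-7.40), so it passed the filter only through iHECs. Sfpi1, the gene of PU.1, was higher by 5.37, Nfe2 by 3.0 and Lmo4 by 1.95. These genes, found in 23, 25 and 28 of 65 iHECs, passed the filter only through the iHPCs. Fli1 (-2.22), Gata2 (-2.06) and Ssbp3 (-1.17) were lower, the means of Ssbp3 differing by -0.25 as they stand. From day 14 to day 17 Lmo4 was lower (-1.39). From day 17 to day 21 Gata2 was higher by 4.15 and Erg by 1.04, and Nfe2 was lower by 2.25 (median of the 14 genes 0.20). The means of Erg differed by 0.30 as they stand. Erg was in 3 of 18 and 11 of 56 cells and passed the filter only with the day-21 cells.

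Among 16 genes that E proteins turn on in lymphoid cells, 9 passed the filter. From iHEC to day 14, 0 were higher past the fold and 3 were lower, namely Notch1 (-1.42), Foxo1 (-2.05) and Cdkn1a (-3.28). From day 14 to day 17, 4 of 9 were higher and 0 lower, namely Ptcra (5.10), Il7r (4.28), Rag2 (3.69) and Notch1 (2.14), where 9.03% of all genes were higher and 7.09% lower. Ptcra, which codes for the pre-T cell receptor alpha chain, was at 0 in every day-14 cell and above 1 TPM in 13 of 18 cells of day 17, where it reached 519 TPM. From day 17 to day 21 Cd3g was higher (4.12). Ptcra, Il7r, Rag2 and Cd3g passed the filter only through the groups where they were high. In the order of groups Cd3g was in 0, 0, 1 and 30 cells, Il7r in 0, 0, 15 and 41 and Rag2 in 0, 4, 15 and 40. These counts are therefore no support for a direction of the list. Il7r codes for CD127, a sort marker of the day-21 cells. Rag2 was found in 15 of 18 cells of day 17 and 40 of 56 of day 21. The summed T lymphoid markers had medians of 7.14, 838 and 634 TPM at days 14, 17 and 21. That list shares Ptcra, Cd3e and Cd3g with these 16 genes, so it is no separate measure. Its part in these values was not tested.

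Genes of BMP and SMAD feedback, a pathway whose targets include the Id genes, had 5 of 10 measured past the filter. From iHEC to day 14, 4 of 5 were lower and 0 higher, against 24.4% and 27.3% of all genes. The lower genes were the receptors Acvrl1 (-4.97) and Eng (-3.78) and the inhibitors Smad6 (-1.96) and Bambi (-1.44). Acvrl1 (47 of 65 iHECs, then 0, 4 and 0 cells) and Smad6 (23, then 4, 6 and 3) passed the filter only through iHECs. These counts are therefore no support for a direction of the list. Eng was lower again at day 17 (-1.16), and from day 17 to day 21 no gene of the list was past the fold. Of 16 further helix-loop-helix genes only 3 passed the filter, of which Tcf15 (-5.49) and Bhlhe40 (-5.11) were lower at day 14. Tcf15 passed it only through iHECs (53 of 65, then 3, 2 and 0 cells). From day 17 to day 21 Hes1, a Notch target, was lower by 1.24 and Bhlhe40 higher by 1.64.

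All 10 genes linked to Lmo2 in stem cells passed the filter, and Lyl1 and Hhex are among them. From iHEC to day 14 there were 4 higher and 4 lower, where 27.3% and 24.4% of all genes were. The higher genes were Flt3 (3.45), Nfe2, Bcl11a (2.49) and Gfi1b (1.97), and the lower ones Kit (-2.04), Mef2c (-1.29), Hhex and Mycn (-1.0). As they stand, the means of Mef2c, Hhex and Mycn differed by -0.37, -0.08 and -0.08. Flt3, Gfi1b, Bcl11a and Nfe2, found in 0, 1, 17 and 25 of 65 iHECs, passed the filter only through the iHPCs. The count of higher genes is therefore no support for a direction of the list. From day 14 to day 17 Kit was higher (1.34) and Gfi1b lower (-1.48). From day 17 to day 21, along with Lmo2, 4 were lower and 1 higher (median -0.87), where 13.1% and 10.3% of all genes were, namely Mef2c (-2.74), Nfe2, Flt3 (-1.28) and Mycn (-1.04), and Kit (1.63). Kit codes for c-kit, a sort marker of iHECs and day-21 cells that the gates of days 14 and 17 did not use. Mef2c, a factor of lymphoid progenitors, was found in 17 of 18 cells at day 17 and 14 of 56 at day 21.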

How the data were processed

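Single sorted cells were sequenced after cDNA amplification (Discover-sc WTA Kit V2). Per the labels and the methods, the authors aligned reads to mm10 with HISAT2 2.1.0 and computed TPM per gene with StringTie 1.3.4. The sequencer named in the labels is not the one named in the methods. The deposited table of TPM values held 160 cells by 23420 rows, all columns were used, and a cell's TPM summed to between 988686 and 999108. Samples were grouped by their labels. The 10 genes, the gene lists and the rules were chosen with earlier results of these data known. Values were used as log2(TPM + 1). A gene was detected above 1 TPM, and 9674 genes detected in more than 30 cells entered the comparisons. Named genes were the 10 members, list genes past the fold and the 5 genes most like Lmo2, Id1 and Id2. Gata1, Id4, Ldb1, the marker genes and Pou5f1, Dppa5a and Krt8 are named outside that rule, the last 3 after their values were seen. With 1 sample per group no test was run. Shares have exact 95% intervals, with a limit of 3 cells of the total at 0. Each library is 1 sorted cell, so no doublet caller was run. Of 12720 pairs of cells, 0 were identical. The ranking was checked on simulated data. Analysis used Python 3.11.15, pandas 2.3.3 and scipy 1.17.1, and Lyl1 overlap was read from GENCODE M21 (GRCm38). Alternatives changed the pseudocount, scaling, threshold, filter, fold, genes in a family and the cells used.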

Additional observations from a re-analysis of the deposited data

How the results depend on the processing

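Each value was recomputed with 1 choice changed at a time, and of 537 recomputed values 443 stayed within the spread between cells, the exact interval or 1.5 times the count, 91 moved further and 3 of a size past the fold changed sign. With those of main values closer to 0, 16 changed sign in all, among them the day-14 balance of 0.22, which was -0.19 with the mean of log2 values per family and -2.26, -0.36 and -0.37 without Id1, Id2 and Id3. Settings on cells with at least 6000 genes, on cells low in the markers of their label and, other than for the mean differences, on day-21 cells without Gata2 were added after the data had been seen. The balance turned from -1.95 to 0.68 at day 17 without Tcf3, and from 1.98 at day 21 to -4.39 without Id2 and to -0.10 with the mean of log2 values per family in place of summed TPM, the last because 3 genes then weigh alike. At day 14 it was 3.28 without Tcf3. The share of cells with more Id than E transcript was 63.1% in iHECs without Id3, 14.3% and 95.2% at day 14 without Id1 and without Tcf3, 61.1% at day 17 without Tcf3, and 8.93% and 94.6% at day 21 without Id2 and without Tcf3. With the Id sum at least 2 times the E sum it was 23.8% at day 14. In cells with 5000 to 7500 genes it was 93.3% in iHECs and 0% at day 17, and in iHECs with at least 6000 genes it was 100%. Without the cells low in the markers of their label it was 0% at day 17.

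The share of cells with Lmo2 was 86.7% in iHECs and 33.3% at day 17 (3 cells) with 5000 to 7500 genes, and 100% in iHECs with at least 6000. Co-detection of the 4 parts of the complex, without its Gata factor, was 24.6% in iHECs and 3.57% at day 21 above 10 TPM. It was 60% in iHECs and 33.3% at day 17 with 5000 to 7500 genes, and 83.3% in iHECs with at least 6000. The counts of genes past the fold moved with their definition, from 2638 higher and 2363 lower (iHEC to day 14), 874 and 686 (day 14 to day 17) and 999 and 1266 (day 17 to day 21). Taking differences as they stand gave 4646 and 1110, 1497 and 376, and 225 and 3725. A fold of 2 log2 units gave 1171 and 1052, 187 and 91, and 167 and 132. A pseudocount of 10 gave 1539 and 1068, 256 and 144, and 227 and 355. Using all genes gave 4215 and 1566 in the first comparison, 1394 higher in the second, and 484 and 2620 in the third. Using genes above 1 TPM in more than 80 cells gave 1710 higher in the first, 470 and 349 in the second, and 733 lower in the third.

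No paired analysis was possible because the numbers in the sample titles, which recur in every group, only index single cells, and no source ties a cell of one group to a cell of another. Only 1 day-14 cell had 5000 to 7500 genes, so that setting gave no day-14 value. Limits are the single sample per group, the gate that changed with the day, a depth that TPM does not keep, and complexity that differed between groups. A further limit is that stroma and medium changed between iHECs and day 14.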
